A study of Mus musculus with 5 samples.

Results

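Interferon-inducible GTPases were followed across 5 mouse osteoclast-forming co-cultures through 6 genes, Iigp1, Irgm1, Ifi47, Igtp, Gbp2 and Gbp3. All probe sets whose annotated symbol was one of these names were taken. That gave 7 probe sets of the 12488 on the array, 2 of them for Iigp1, and 6 of the 8251 genes that carried a single symbol. RNA came from whole dishes. In each, haematopoietic cells and the stromal line ST2-T had been kept together for 6 days, and dexamethasone and 1,25-dihydroxyvitaminD3 were added to all 5. The groups were Fos-/- splenocytes expressing deltaNFAT after viral infection, Fos-/- splenocytes infected with GFP-virus, Fos-/- splenocytes without virus, Fos+/+ bone marrow without virus and Fos+/+ splenocytes without virus. Each group had 1 array. The uninfected Fos-/- spleen dish matches the virus dishes in genotype and tissue, while the Fos+/+ dishes differ from them in genotype as well. The labels name neither the type nor the dose of the viruses and list no mock infection, so virus and infection procedure cannot be told apart. The stromal cells carry their own genome, and in such mixed RNA fewer cells of a type and less RNA per cell cannot be told apart.

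These genes encode GTPases that cells make in large amounts after interferon, above all interferon-gamma and also type I interferon. The immunity-related GTPases (IRG) Iigp1 and Ifi47 are effectors that gather on the vacuoles of intracellular parasites such as Toxoplasma, whereas Irgm1 and Igtp sit on the cell's own membranes and keep the effectors inactive there. The guanylate-binding proteins (GBP) Gbp2 and Gbp3 are larger GTPases that follow the IRG proteins onto such vacuoles. In macrophages the system belongs to cell-autonomous defence, and macrophage precursors are also the cells that form osteoclasts.

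Interferon acts on such genes through transcription factors that bind GAS-type and ISRE-type elements near transcription starts. The promoters of 5 members, all but Iigp1, were in the RefSeq-derived table (build GRCm38.p6, 250 bases before and 50 bases from the start), in 6 windows because the table holds 2 starts for Gbp3. They were searched on both strands for GAAA, any 2 bases and GAAA again (ISRE-type), and for TTC, any 3 bases and GAA (GAS-type). An ISRE-type match was found in 4 of the 6 windows, against 3.44% of all 32851 windows, and a GAS-type match in 1 of 6, against 8.3% of all windows. The stretches below run from 100 bases before to 20 bases from the start and are shown because 4 of these genes share the ISRE-type letters close to the start. Capitals mark matches.
Irgm1: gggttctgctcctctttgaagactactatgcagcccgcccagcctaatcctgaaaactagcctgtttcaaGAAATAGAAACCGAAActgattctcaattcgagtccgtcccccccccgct
Igtp: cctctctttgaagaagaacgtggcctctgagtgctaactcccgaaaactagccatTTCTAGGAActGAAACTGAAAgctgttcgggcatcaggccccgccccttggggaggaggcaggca
Gbp3: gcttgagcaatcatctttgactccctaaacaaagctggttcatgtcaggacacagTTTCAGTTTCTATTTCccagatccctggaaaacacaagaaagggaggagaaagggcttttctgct
Gbp2: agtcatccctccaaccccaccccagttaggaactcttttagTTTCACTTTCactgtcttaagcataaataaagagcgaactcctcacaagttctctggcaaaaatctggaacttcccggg
Ifi47: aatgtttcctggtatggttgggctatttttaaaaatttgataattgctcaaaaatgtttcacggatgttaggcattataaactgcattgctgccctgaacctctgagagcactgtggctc

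The Irgm1 stretch (chr11:48871401-48871520, minus strand) holds 2 overlapping ISRE-type matches that begin 30 and 24 bases before the start. In Igtp (chr11:58199456-58199575, plus strand) the ISRE-type match begins 34 bases before the start and a GAS-type match lies next to it, 45 bases before the start, and the 2 do not overlap. Gbp3 (chr3:142559944-142560063, plus strand) has 2 overlapping matches on the opposite strand at 45 and 39 bases, and Gbp2 (chr3:142620563-142620682, plus strand) has 1 on the opposite strand at 59 bases. Neither set of letters was in the Ifi47 window, of which chr11:49076487-49076606 (plus strand) is printed for comparison, nor in the window of the other Gbp3 start. In the annotation Gbp3, Gbp2b and Gbp2 follow each other on chromosome 3, with Gbp7 before them. Igtp is followed by Irgm2 on chromosome 11. Ifi47 follows the IRG gene Tgtp2 on chromosome 11. Irgm2, another regulatory IRG, held an ISRE-type match 64 bases and a GAS-type match 75 bases before its start, and Gbp7 held an ISRE-type match at 53 bases and GAS-type matches at 106 and 87 bases. Gbp2b, whose intensity was below 0 in all 5 arrays, also held an ISRE-type match, 137 bases before its start. Of 9 other family genes in the promoter table, 7 had an ISRE-type and 5 a GAS-type match. A match is a description of letters, and no binding was measured.

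Intensities are on a linear scale, with each array's mean (without the lowest and highest 2%) set equal. Values under a floor of 19.8, the 40th percentile of all values, were set to that floor before ratios were taken. A ratio was counted as higher or lower when it reached 2-fold and the brighter array read at least 39.6, and a fold against an array at or under the floor is a lower bound, written "at least". Between 7282 and 7782 probe sets lay above the floor in an array. With 1 array per group no replicate error, test or p-value exists, and the 1st percentile of the values, from -133 to -77.6 across arrays, shows how far background noise can reach. The brighter Fos probe set read 581 with deltaNFAT virus, 607 with GFP virus, 426 in uninfected Fos-/- spleen, 614 in Fos+/+ bone marrow and 848 in Fos+/+ spleen. Stromal and haematopoietic Fos cannot be told apart in these values, and the sources used here do not say where the probes lie relative to the deletion.

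Among the effector IRGs, Iigp1 read 199 with deltaNFAT virus and 109 with GFP virus, against -12.4 in uninfected Fos-/- spleen, 19.5 in Fos+/+ bone marrow and -8.3 in Fos+/+ spleen. Both virus arrays were above the floor and all 3 uninfected arrays were at or under it. Over uninfected Fos-/- spleen the level was at least 10.04-fold higher with deltaNFAT and at least 5.50-fold higher with GFP. The other Iigp1 probe set, whose suffix f marks probes that can match several related sequences, gave the same order of virus and uninfected arrays at lower values. It read 51.4 with deltaNFAT and 30.6 with GFP, against -26.8 in uninfected Fos-/- spleen, -31.0 in Fos+/+ bone marrow and -1.6 in Fos+/+ spleen. Its fold over uninfected Fos-/- spleen was at least 2.60 with deltaNFAT, while its GFP value did not reach 39.6.

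Ifi47, the other effector, read 102 with deltaNFAT and 68.1 with GFP, against -8.2 in uninfected Fos-/- spleen, -6.6 in Fos+/+ bone marrow and 1.8 in Fos+/+ spleen. The virus and uninfected arrays did not overlap here either. Its folds over uninfected Fos-/- spleen were at least 5.15 with deltaNFAT and at least 3.44 with GFP. Iigp1 and Ifi47 thus passed the brightness limit through the virus arrays alone.

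The regulatory IRGs read above the floor in every array. Their values in the 3 uninfected arrays were smaller in size than the 1st percentiles of those arrays, so the folds below are imprecise. Irgm1 read 157 with deltaNFAT and 112 with GFP, against 46.8 in uninfected Fos-/- spleen, 44.6 in Fos+/+ bone marrow and 40.9 in Fos+/+ spleen. The 3 uninfected arrays lay close together and below both virus arrays. Irgm1 was 3.35-fold higher with deltaNFAT and 2.39-fold higher with GFP than in uninfected Fos-/- spleen. Igtp read 90.7 with deltaNFAT and 64.5 with GFP, against 43.9 in uninfected Fos-/- spleen, 48.3 in Fos+/+ bone marrow and 52.2 in Fos+/+ spleen. Its virus arrays were again the highest, but by less, at 2.07-fold with deltaNFAT and 1.47-fold with GFP over uninfected Fos-/- spleen. After quantile normalization the deltaNFAT log2 ratio of Igtp was 0.97, under the 2-fold threshold.

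The guanylate-binding proteins differed from each other. Gbp3 read 118 with deltaNFAT and 62.2 with GFP, against 16 in uninfected Fos-/- spleen, 47.1 in Fos+/+ bone marrow and 29.8 in Fos+/+ spleen. It was at least 5.98-fold higher with deltaNFAT and at least 3.14-fold higher with GFP than in uninfected Fos-/- spleen, but its GFP value lay within 2-fold of Fos+/+ bone marrow. Gbp2 read 34.2 with deltaNFAT and -0.8 with GFP, against -5.3 in uninfected Fos-/- spleen, -7.9 in Fos+/+ bone marrow and -1.6 in Fos+/+ spleen. The deltaNFAT array alone was above the floor, and it did not reach the 39.6 needed for a call, so Gbp2 gave no call in any comparison.

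**Figure D1:**
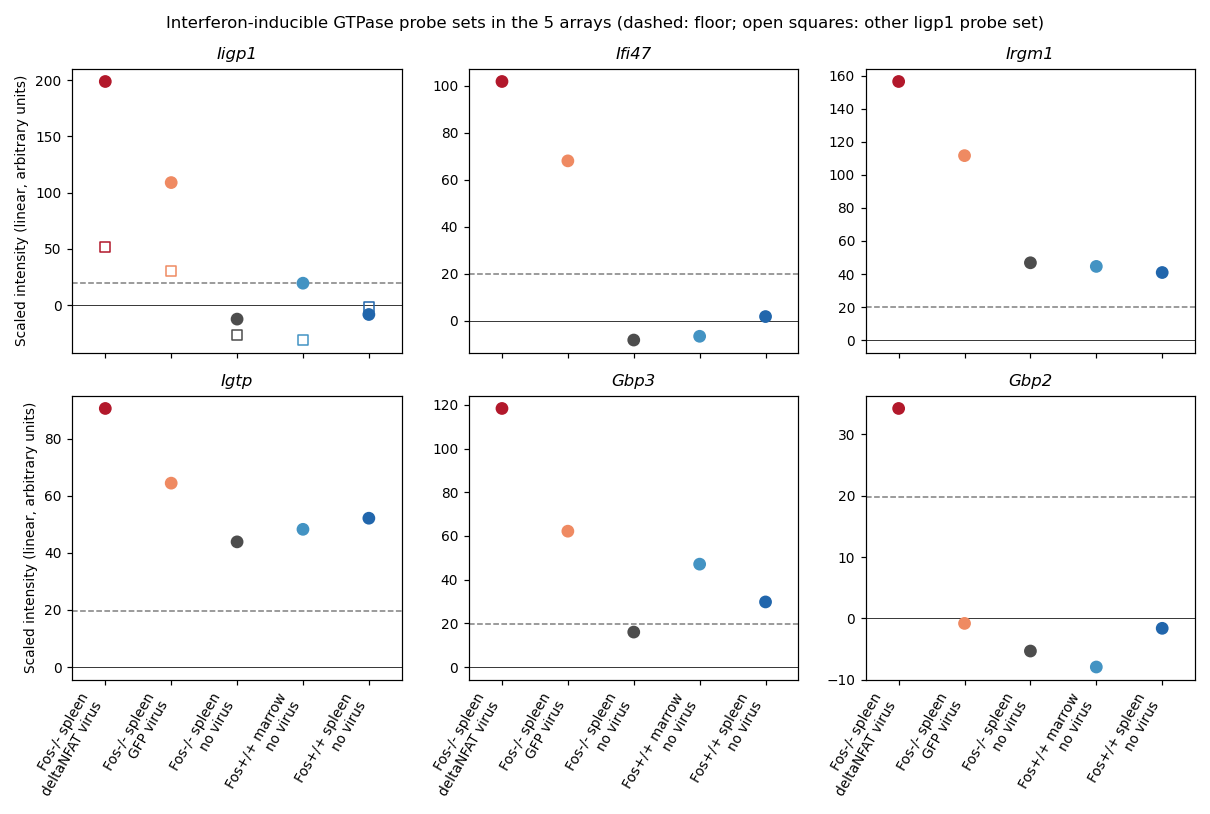
Scaled intensity (linear, vertical axis) of the 7 member probe sets in the 5 arrays (horizontal axis), 1 point per array, with open squares for the other Iigp1 probe set and a dashed line at the floor of 19.8. The deltaNFAT array is the highest in all 6 genes. Both virus arrays lie above the 3 uninfected arrays in 5 of them, and Gbp2 exceeds the floor with deltaNFAT alone.

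Counted over all 6 members, 5 were higher with deltaNFAT than in uninfected Fos-/- spleen and 0 lower, against 6.9% of all 8251 genes higher and 4.18% lower. With GFP 4 of 6 were higher and 0 lower, against 6.4% of all genes higher and 4.38% lower. These 2 comparisons share the uninfected Fos-/- array, so its own error enters both. Iigp1, Ifi47, Gbp3 and Gbp2 were under the floor in that array and could not be called lower, so the 0 lower carries no information for them. In these 2 comparisons Iigp1, Ifi47 and Gbp3 passed the brightness limit through the virus array alone. The median log2 ratio of the 6 members was 2.05 with deltaNFAT and 1.45 with GFP, beside 0.00 over all genes in both. The ratios of Iigp1, Ifi47, Gbp3 and Gbp2 to the uninfected dish are bounds, so these medians and the ranks that follow are set in part by the floor. The deltaNFAT log2 ratio of Iigp1, 3.33 here, was 4.75 with the floor at the 30th percentile and 1.61 at the 60th. By rank of the log2 ratio among the 8251 genes, Iigp1 was at place 20 with deltaNFAT and 62 with GFP, Gbp3 at 61 and 190, Ifi47 at 85 and 157, Irgm1 at 199 and 362, Igtp at 537 and 1062, and Gbp2 at 812 with deltaNFAT.

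Both virus arrays lay above all 3 uninfected arrays in 5 of 6 members (Iigp1, Irgm1, Ifi47, Igtp and Gbp3), a pattern that 9.45% of all genes showed while reaching 39.6 in an array. In 3 of 6 (Iigp1, Irgm1 and Ifi47) the lower virus array was at least 2-fold over the highest uninfected one, against 0.473% of all genes, or 39 genes. Of these 39, 12 were in the lists of GTPases and interferon pathway genes used here. The 9 that are no members were Irgm2, Mx1, Irf9, Usp18, Ifit1, Ifit3, Isg15, Ifih1 and Trim30a. The 5 arrays are 5 conditions and no replicates, so this is a description of the arrays. Members and thresholds were chosen with earlier results of these data known, and Iigp1 and Ifi47 reached 39.6 through the virus arrays alone. The shares of all genes beside these counts, and beside those against uninfected Fos-/- spleen, are therefore no test of the members. The counts depend on the floor. At a floor of 65.1, the 60th percentile, 2 members (Iigp1 and Irgm1) remained higher with deltaNFAT than without virus, and 0 with GFP.

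In Irgm1 and Igtp, the members above the floor in every array, the folds of deltaNFAT virus over GFP virus were 1.40 and 1.41. Those of GFP virus over the uninfected Fos-/- dish were 2.39 and 1.47. All 6 members read higher with deltaNFAT than with GFP, as did 36.6% of all genes. Genes at or under the floor in both arrays count as ties in that share, which lowers it. Of the 6 members 0 were 2-fold higher, against 2.16% of all genes, and 0 were 2-fold lower, against 1.58%. In a list this small these counts are near the shares of all genes. The folds of deltaNFAT over GFP were 1.90 for Gbp3, 1.82 for Iigp1, 1.496 for Ifi47, 1.41 for Igtp and 1.40 for Irgm1. For Gbp2 the fold was at least 1.73, between a deltaNFAT value under 39.6 and a GFP value under the floor. The median of the 6 log2 ratios was 0.68, beside 0.00 over all genes. With no replicate array it is unknown whether differences of this size exceed the array-to-array error.

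**Figure D2:**
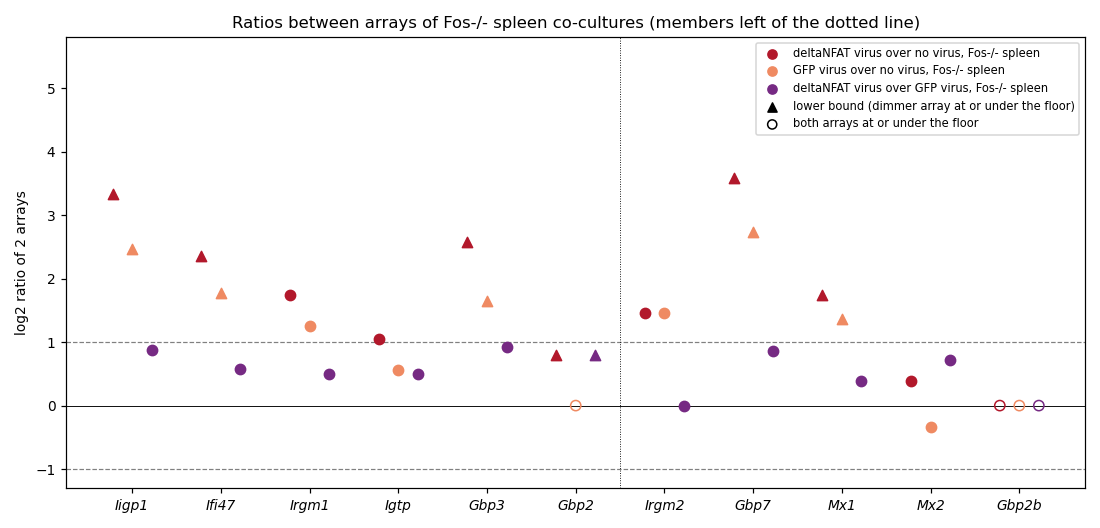
Log2 ratio (vertical axis) of the members (left of the dotted line) and the other GTPases of the family (right of it) for deltaNFAT over no virus, GFP over no virus and deltaNFAT over GFP, all in Fos-/- spleen. Triangles are lower bounds, open circles have both arrays at or under the floor and dashed lines mark 2-fold; Iigp1, Ifi47 and Gbp3 have the largest bounds among the members, and the deltaNFAT over GFP ratios measured on both sides lie under 2-fold, while that of Gbp2 is a bound.

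Without virus, genotype and tissue gave no call among the members, which in a list this small is near the shares of all genes. Of the 6 members, 2 were bright enough for a call between genotypes and 3 between tissues. Between Fos-/- and Fos+/+ spleen 0 of 6 were higher and 0 lower in ratios taken as Fos+/+ over Fos-/-, against 3.93% of all genes higher and 3.89% lower. Igtp, at 43.9 in Fos-/- and 52.2 in Fos+/+ spleen, gave a log2 ratio of 0.25 for Fos+/+ over Fos-/-, and Irgm1, at 46.8 and 40.9 in the same order of dishes, gave -0.19. Gbp3 was under the floor in Fos-/- spleen and at 29.8 in Fos+/+ spleen, too dim for a call. Between Fos+/+ bone marrow and Fos+/+ spleen 0 of 6 were higher and 0 lower, against 8.44% and 4.61% of all genes, with Gbp3 1.58-fold higher in bone marrow. Iigp1, Ifi47 and Gbp2 were at or under the floor in all 3 uninfected arrays, so differences among those arrays were not detectable for them.

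Other GTPases of the family had both virus arrays above all 3 uninfected ones in 3 of 5 genes on the array, against 9.45% of all genes. Gbp7, another guanylate-binding protein, read 239 with deltaNFAT and 131 with GFP, against 12.3 in uninfected Fos-/- spleen, 89.7 in Fos+/+ bone marrow and 49.5 in Fos+/+ spleen. Its folds over uninfected Fos-/- spleen were at least 12.1 with deltaNFAT and at least 6.62 with GFP. Like Gbp3 it had its lowest value in the uninfected Fos-/- dish, where it was at least 2.50-fold lower than in Fos+/+ spleen. Irgm2 read 219 with deltaNFAT and 219 with GFP, against 79.7 in uninfected Fos-/- spleen, 74.0 in Fos+/+ bone marrow and 72.5 in Fos+/+ spleen, and was 2.75-fold higher with either virus. Its deltaNFAT and GFP values differed by 1.00-fold, unlike those of the 6 members.

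Mx1, a dynamin-like GTPase that blocks influenza virus in mice, read 66.1 with deltaNFAT and 50.9 with GFP, against 12.6 in uninfected Fos-/- spleen, 13.3 in Fos+/+ bone marrow and 1.9 in Fos+/+ spleen. Its relative Mx2 did not separate the arrays, at 117 with deltaNFAT and 71.5 with GFP, against 89.9 in uninfected Fos-/- spleen, 107 in Fos+/+ bone marrow and 93.5 in Fos+/+ spleen. Gbp2b, the gene between Gbp3 and Gbp2, was under the floor in all 5 arrays. A further 2 probe sets of the family carried several gene symbols and were not used. Near-identical family members can share probes, so a value may include a relative's transcript.

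Many type I interferon effectors, the proteins by which cells resist viruses, differed in the same direction as the GTPases. Compared with uninfected Fos-/- spleen, deltaNFAT gave 11 higher and 0 lower among the 22 on the array (median log2 ratio 0.92). GFP gave 10 higher and 0 lower (median 0.78). Of all genes, 6.9% were higher and 4.18% lower with deltaNFAT, and 6.4% higher and 4.38% lower with GFP. Ifit1, Ifit2, Ifit3, Isg15, Oas1g, Rsad2, Ifi202b, Eif2ak2 and Ifih1 were under the floor in uninfected Fos-/- spleen. They could pass the brightness limit only through a virus array and could not be called lower. The shares of all genes are therefore no test of this list. The DNA sensor family gene Ifi204 read 597 with deltaNFAT and 367 with GFP, against 31.3 in uninfected Fos-/- spleen, and was 19.1-fold and 11.7-fold higher. Its probe set also carries the suffix f, so its values may include transcripts of relatives. Isg15, a ubiquitin-like modifier, was at least 18.5-fold higher with deltaNFAT and at least 7.20-fold higher with GFP. The RNA sensor Ifih1 was at least 7.34-fold and at least 5.59-fold higher, and Ifi202b, a relative of Ifi204, at least 16.1-fold and at least 10.3-fold. Ifi204, Ifi202b and Ifih1 also read 210, 164 and 52.2 in Fos+/+ bone marrow, where the IRG effectors were at or under the floor. Trim30a, an interferon-induced ubiquitin ligase family gene, was 7.34-fold higher with deltaNFAT and 5.66-fold with GFP.

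Genes classically tied to interferon-gamma gave few calls, near the shares of all genes. Of 19 on the array, 2 were higher and 1 lower with deltaNFAT (median log2 ratio 0.47), against 6.9% and 4.18% of all genes. With GFP 1 was higher and 2 lower (median 0.08), against 6.4% and 4.38%. The immunoproteasome subunit Psmb9 was at least 2.93-fold higher with deltaNFAT and at least 2.72-fold higher with GFP, but Fos+/+ spleen read 53.2, close to the 58.1 and 53.8 of the virus arrays. Gch1, the first enzyme of tetrahydrobiopterin synthesis, was at least 2.64-fold higher with deltaNFAT. The tryptophan-degrading enzyme Ido1 was 3.86-fold lower with GFP, the tryptophanyl-tRNA synthetase Wars 2.25-fold lower with GFP, and Il18bp, which captures interleukin 18, 2.49-fold lower with deltaNFAT. The chemokine Cxcl9 and the nitric oxide synthase Nos2 were under the floor in all 5 arrays. B2m, the light chain of MHC class I, read 2460 with deltaNFAT and 2407 with GFP against 1358 in uninfected Fos-/- spleen, under 2-fold.

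**Figure D3:**
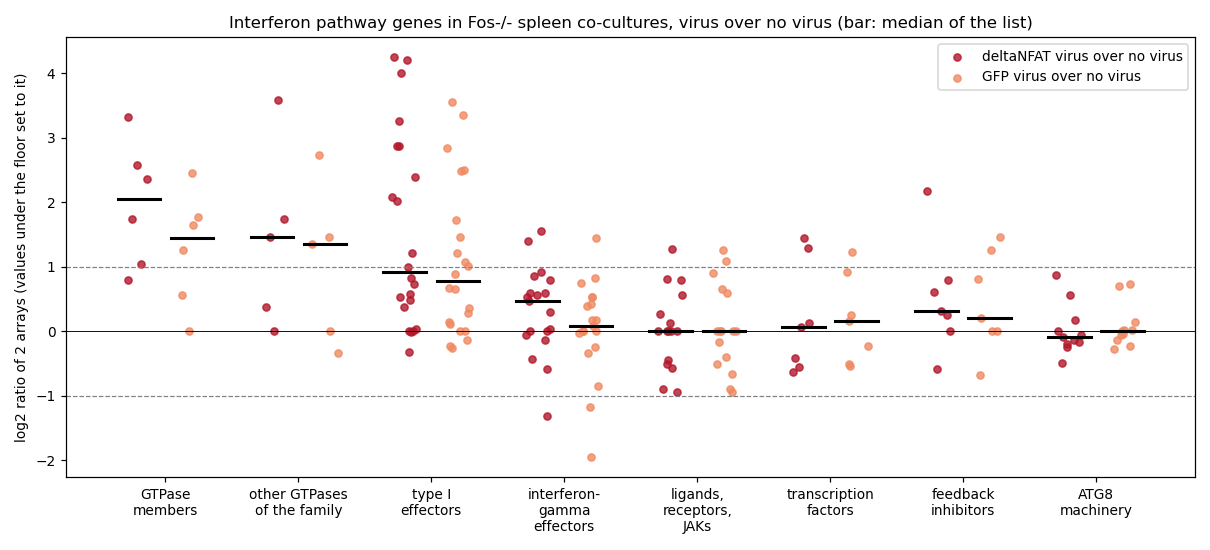
Log2 ratio (vertical axis) of each gene of 8 lists (horizontal axis) for deltaNFAT over no virus and GFP over no virus in Fos-/- spleen, with black bars at the list medians and dashed lines at 2-fold. The member medians are 2.05 and 1.45, those of the type I effectors 0.92 and 0.78, and those of the ATG8 machinery -0.09 and 0.00.

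Interferons, their receptors and the receptor kinases gave calls near the shares of all genes, and 11 of the 16 on the array exceeded the floor in any array. Ifng and Ifnb1, the genes of interferon-gamma and interferon-beta, were under the floor in all 5 arrays. Of the 16 ligands, receptors and kinases on the array, 1 was higher with deltaNFAT and 2 with GFP, against 6.9% and 6.4% of all genes. None was lower with either virus, against 4.18% and 4.38%, and the medians were 0.00. The receptor chain Ifngr1 read 277 with deltaNFAT and 335 with GFP, against 158 in uninfected Fos-/- spleen, and passed with GFP alone (2.13-fold). Ifngr2 was at 92.2 and 75.2 against 84.4, Ifnar1 at 164 and 205 against 136, and Ifnar2 at 87.1 and 98.3 against 129 in the same order of dishes, all under 2-fold. The receptor kinase Jak2 was 2.41-fold higher with deltaNFAT, and Jak1 read 376 with deltaNFAT and 476 with GFP against 254 in uninfected Fos-/- spleen. Ifna9, 1 of the near-identical interferon-alpha genes, read 34.4 with deltaNFAT and 47.5 with GFP, against 6.7 in uninfected Fos-/- spleen, which gave at least 2.40-fold with GFP, while Ifna5 read 80.3 and 68.9 against 109.

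Among 7 transcription factors, 2 were higher with deltaNFAT and 1 with GFP, against 6.9% and 6.4% of all genes, and 0 were lower with either. Irf9, the DNA-binding part of the type I interferon complex ISGF3, read 243 with deltaNFAT and 232 with GFP, against 98.8 in uninfected Fos-/- spleen, 23.2 in Fos+/+ bone marrow and 86.6 in Fos+/+ spleen. It was 2.46-fold and 2.35-fold higher than in uninfected Fos-/- spleen. Irf7, which amplifies type I interferon production, read 189 with deltaNFAT and 131 with GFP, against 69.3 in uninfected Fos-/- spleen, and was 2.73-fold higher with deltaNFAT and 1.89-fold with GFP. Irf1, an activator of GTPase genes after interferon-gamma, lay between 214 and 280 in all 5 arrays. Irf5 read 213 and 194 against 282, and Irf3 read 56.6 and 74.8 against 87.3 in the same order of dishes, under 2-fold.

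Of 7 feedback inhibitors, 1 was higher with deltaNFAT and 2 with GFP, against 6.9% and 6.4% of all genes, with 0 lower. Usp18, the protease that removes Isg15 and damps type I receptor signalling, was at least 4.51-fold and at least 2.74-fold higher. Socs3 was 2.40-fold higher with GFP, and Socs1 read 59.0 with deltaNFAT and 55.0 with GFP against 88.2 in uninfected Fos-/- spleen, under 2-fold. Pias1, a SUMO ligase, read 113 and 130 against 73.7. The ATG8 conjugation machinery, which guides IRG and GBP proteins to vacuoles, had 0 of 11 genes higher and 0 lower with either virus. In a list this small that is near the shares of all genes, 6.9% higher with deltaNFAT and 6.4% with GFP. Atg5 read 154 with deltaNFAT and 146 with GFP against 160 in uninfected Fos-/- spleen, and Atg12 read 180 and 162 against 97.5. Atg7 read 60.7 and 66.7 against 40.8, Gabarap 1193 and 1396 against 1681, and Map1lc3a 283 and 289 against 337.

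Likeness of pattern was measured over the 5 arrays as the root mean square difference between a gene's centred log2 values and the mean centred profile of the 6 members. Among 4396 genes that reached 79.2 in an array, the closest were Rsad2 (0.074), Twsg1 (0.118), Usp18 (0.160), Irf7 (0.195) and Ms4a4d (0.222). Irgm2 (0.243), H2-Q5 (0.247), Ifit3 (0.250), Apod (0.253) and Tor3a (0.262) followed. Rsad2 read 84.1 with deltaNFAT and 46.2 with GFP, against 17.0 in uninfected Fos-/- spleen, 23.2 in Fos+/+ bone marrow and 14.4 in Fos+/+ spleen. The members themselves lay between 0.130 (Irgm1) and 0.679 (Iigp1) from their own mean, and these 10 genes were closer to it than 5 of the 6 members were. The 10 genes were picked as the closest of 4396, so this difference says nothing about how alike the members are. The 3 nearest to Iigp1 were Gm9706 (0.130), Fcgr2b (0.272) and Ifit1 (0.289). Nearest to Irgm1 were Twsg1 (0.101), Irf7 (0.124) and Usp18 (0.147), and to Ifi47 Usp18 (0.134), Ms4a4d (0.248) and Rsad2 (0.271). Igtp had Znrf2 (0.105), Trim25 (0.108) and Dck (0.113), and Gbp3 had Eps8 (0.213), Eif2ak2 (0.223) and Sltm (0.270). Gbp2 had Mtor (0.071), Cd9 (0.100) and Vipr1 (0.111). The profile of Gbp2 rests on 1 array above the floor, and values set to the floor make dim genes look flatter.

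**Figure D4:**
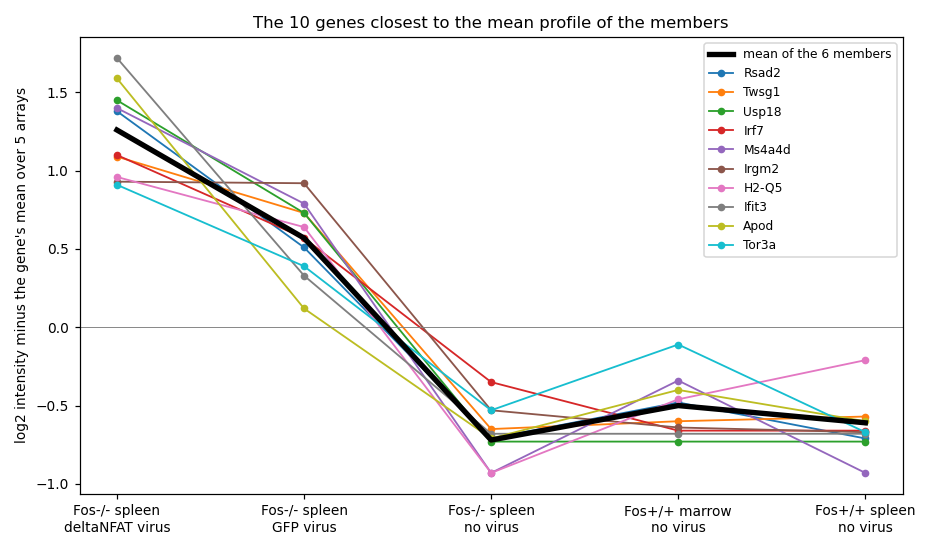
Log2 intensity minus the gene's mean over the 5 arrays (vertical axis) for the mean of the 6 members (thick line) and the 10 closest genes; lines join arrays only to guide the eye. The member mean is 1.26 with deltaNFAT, 0.57 with GFP and between -0.72 and -0.50 in the uninfected arrays.

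Cell type markers were read beside these values. Of 13 macrophage markers on the array, 3 were higher with deltaNFAT and 2 with GFP than in uninfected Fos-/- spleen, and 0 lower. Of all genes, 6.9% were higher and 4.18% lower with deltaNFAT, and 6.4% higher and 4.38% lower with GFP. The mannose receptor Mrc1 read 1140 with deltaNFAT and 1045 with GFP, against 214 in uninfected Fos-/- spleen, 596 in Fos+/+ bone marrow and 58.1 in Fos+/+ spleen. The scavenger receptor Msr1 read 335 and 295, against 66.0, 299 and 50.8 in the same order of dishes. Defining macrophage genes such as Csf1r (1291 and 1486, against 1469 in uninfected Fos-/- spleen) stayed within 2-fold, and the summed level of the 13 was 16749 with deltaNFAT and 18243 with GFP, against 16447 in uninfected Fos-/- spleen, 13480 in Fos+/+ bone marrow and 11235 in Fos+/+ spleen. The integrin chain Itgam was higher with deltaNFAT, and Aif1 read 267 and 288 against 196 in uninfected Fos-/- spleen. Mrc1 and Msr1 were higher with both viruses than in uninfected Fos-/- spleen. Among the uninfected dishes both were highest in Fos+/+ bone marrow, where Msr1 exceeded its GFP value. Their part in the GTPase result was not tested.

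Of 9 neutrophil markers, 2 were higher with deltaNFAT (S100a9 and Mpo) and 4 with GFP, where Lcn2 and Ngp joined them. The shares of all genes were 6.9% and 6.4%, and the part of these markers in the GTPase result was not tested. The 9 summed to 4690 with deltaNFAT and 6906 with GFP, against 3161 in uninfected Fos-/- spleen, 9728 in Fos+/+ bone marrow and 1376 in Fos+/+ spleen. The bone marrow dish, highest in neutrophil markers, read 19.5 for Iigp1, -6.6 for Ifi47, 44.6 for Irgm1, 48.3 for Igtp and -7.9 for Gbp2. Gbp3 at 47.1 and Gbp7 at 89.7 were highest there among the 3 uninfected dishes. Of 14 T and NK cell markers, 9 were at or under the floor in all 5 arrays, Cd3e, Cd3d, Cd3g and Cd8a among them. Of the 14, 1 was lower with deltaNFAT (Gzmb) and 2 with GFP (Gzmb and Klrd1), against 4.18% and 4.38% of all genes. Cd4 read 91.0 with deltaNFAT and 134 with GFP against 167 in uninfected Fos-/- spleen. The sums were 274 with deltaNFAT and 208 with GFP, against 371 in uninfected Fos-/- spleen, 403 in Fos+/+ bone marrow and 222 in Fos+/+ spleen. Of 7 B cell markers, 3 were lower with deltaNFAT (Cd79a, Cd79b and Ms4a1) and 2 with GFP (Cd79a and Cd79b), against 4.18% and 4.38% of all genes. Pax5 read 248 with deltaNFAT and 224 with GFP against 256 in uninfected Fos-/- spleen. Cd22, Blk and Vpreb3 were under the floor throughout. The 7 markers summed to 389 with deltaNFAT and 365 with GFP, against 586 in uninfected Fos-/- spleen. Immunoglobulin genes, which were not on the marker list, went the other way. The heavy chain gene Ighm read 603 with deltaNFAT and 826 with GFP, against 278 in uninfected Fos-/- spleen, 292 in Fos+/+ bone marrow and 287 in Fos+/+ spleen. The light chain variable gene Igkv6-23 read 447 and 860, against 51.4, 10.5 and 47.0 in the same order of dishes. Both are among the 39 genes with the virus arrays 2-fold over all uninfected ones, and their part in the GTPase result was not tested. Osteoclast markers summed to 3597 with deltaNFAT and 1792 with GFP, against 1844 in uninfected Fos-/- spleen, 10738 in Fos+/+ bone marrow and 13617 in Fos+/+ spleen. Of 9 osteoclast markers, 5 were higher with deltaNFAT and 0 with GFP than in uninfected Fos-/- spleen, against 6.9% and 6.4% of all genes. None was lower with either virus. Ctsk, Calcr, Nfatc1 and Car2 read 372, 86.4, 82.7 and 48.4 with deltaNFAT, against 61.3, -5.5, 23.5 and 13.9 in uninfected Fos-/- spleen. With GFP they read 79.3, -4.4, 23.4 and 13.0. Acp5 read 964 with deltaNFAT and 239 with GFP against 462 in uninfected Fos-/- spleen. Mmp9, Tcirg1, Itgb3 and Tnfrsf11a gave no call with either virus. Of 9 dendritic cell and MHC class II markers, H2-Aa, H2-Ab1 and Ccr7 were under the floor in all 5 arrays. Cd74, the MHC class II chaperone, was higher with deltaNFAT, and H2-DMa and Itgax were lower with GFP. These are 1 of 9 higher with deltaNFAT, against 6.9% of all genes, and 2 of 9 lower with GFP, against 4.38%. Of 15 stromal markers, 4 were lower with deltaNFAT (Tagln, Pdgfrb, Loxl1 and Cdh11) and 0 with GFP, against 4.18% and 4.38% of all genes. Thy1 was under the floor in all 5 arrays, and the summed level lay between 13135 and 15953.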

How the data were processed

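Total RNA of 5 mouse co-cultures was measured on 1 one-colour array each, and groups were taken from the sample titles. The authors deposited 1 linear intensity per probe set and array. The sources used here do not name the scanner software. The deposited intensities had a mean of 100.1 in every array without the lowest and highest 2%, and 20.3 to 22.4% of them were at or below 0. Arrays were rescaled to equal trimmed means, floored at 19.8 and taken to log2 with Python 3.11.15, numpy and pandas. Gene names came from the platform annotation: 10855 probe sets carried 1 symbol, 396 several and 1237 none. A gene was represented by its brightest probe set. No test was run, since each group had 1 array, and the number of arrays limits precision.

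The members, gene lists, thresholds and likeness rule were chosen with earlier results of these data known. Named genes are the members, the other GTPases of the family, named receptors, factors and inhibitors, up to 4 genes of each list with the largest virus difference and the genes most alike in pattern. Other genes named were chosen after their values were seen. Alternatives were the deposited scale, quantile normalization, other floors, other treatments of probe sets and a 1.5-fold threshold.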

Additional observations from a re-analysis of the deposited data

How the results depend on the processing

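Counts of members kept within 1.5 times their reported value with the values as deposited, after quantile normalization, in the mean of all probe sets and with unsuffixed probe sets alone. The floor moved them. At the 60th percentile (65.1) the number higher than in uninfected Fos-/- spleen was 2 with deltaNFAT and 0 with GFP, both virus arrays lay above all uninfected arrays in 2 members, and by 2-fold in 0, because a higher floor lowers each bound and raises the brightness needed. At the 30th percentile, chosen after seeing the data because the planned 20th percentile (-1.2) lies below 0 and was not run, 1 member (Gbp2) was higher with deltaNFAT than with GFP and 1 (Iigp1) higher in Fos+/+ bone marrow than in Fos+/+ spleen. A 1.5-fold threshold gave 2 (Iigp1 and Gbp3) and 1 (Gbp3) for these comparisons. Of 180 recomputed member ratios 0 changed sign after a call and 19 moved by over 1.5-fold, 17 of them with a changed floor and 2 in the mean of the Iigp1 probe sets. No paired analysis was possible because each group had 1 array. The 1st percentile of the values, -77.6 with deltaNFAT and -91.5 with GFP, is larger in size than the Gbp2 value with deltaNFAT and than the Igtp, Ifi47 and Gbp3 values with GFP. It was -90.7 in uninfected Fos-/- spleen, -133 in Fos+/+ bone marrow and -90.2 in Fos+/+ spleen. These are larger in size than every member value in those arrays, Irgm1 and Igtp among them. The folds of members are therefore imprecise.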
